A study of Homo sapiens with 2 samples.

Results

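Aminoacyl-tRNA synthetase genes were examined in lists of alternative splicing events from 2 libraries of AC16 cells, through 37 named genes: 17 for cytosolic enzymes or their subunits, 16 for mitochondrial enzymes, GARS1 and KARS1, which each encode both forms, and the scaffold genes AIMP1 and AIMP2. Members were found by their Ensembl gene identifier in the 5 event tables of each library, and 32 of the 37 had at least 1 row. They held 344 of the 42783 events listed in DCRT-KO cells and 219 of the 35307 events listed in WT cells, 563 of 78090 events in all. The series as a whole listed events for 8028 gene identifiers.

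AC16 cells are an established human line that the labels call cardiomyocytes from heart. In the DCRT-KO cells the long non-coding RNA DCRT had been knocked out by CRISPR-Cas9, and the WT cells were the unedited line; both were kept in the same kind of medium. The labels do not say whether the DCRT-KO cells were 1 clone, and give no gene identifier for DCRT, so the knockout itself was not checked here. The series title links DCRT to the splicing regulator PTBP1, and the comparison asked which splicing events are found with and without DCRT.

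There was 1 library of each genotype, so the difference between genotypes has no replicate check and no test was possible. For each event the tables name the isoforms on either side of a choice of splicing, without reads or inclusion levels. Numbers of skipped exons, retained introns, acceptors and donors given below for a gene are rows of each type. Some of these exons and introns are not annotated. Of the member rows, 27 of 344 in DCRT-KO and 13 of 219 in WT repeated the positions of another row. Depth is unknown, and a gene that is more highly expressed or more deeply sequenced can show more isoforms and more events. Intervals below are exact 95% intervals that cover counting error only, and events of the same gene share isoforms, so the true uncertainty is wider. Of 14 cardiomyocyte marker genes 2 had events, with 0 events in DCRT-KO and 3 in WT (2 of NPPB and 1 of MYL3), and TNNT2, MYH6, MYH7, ACTN2 and TTN were not listed in either library. Of 8 fibroblast marker genes all were listed in at least 1 library, with 22 events in DCRT-KO and 571 in WT. COL1A1 had 1 and 405 of these, and 6 of the 8 genes had more events in WT. VIM, with 15 and 12, and PDGFRA, with 2 and 0, had more in DCRT-KO. Of 6 epithelial marker genes 3 were listed, with 79 events in DCRT-KO and 22 in WT. These were KRT18 (38 and 16), LAMB3 (35 and 3) and KRT8 (6 and 3), while EPCAM, CDH1 and KRT19 were not listed. The libraries thus differed in marker genes of other cell types as well as in genotype. Their part in the results below was not tested, and in such bulk samples fewer cells of a type and less RNA per cell cannot be told apart.

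Aminoacyl-tRNA synthetases attach each amino acid to its matching tRNA and so set the reading of the genetic code during translation. Cytosolic and mitochondrial protein synthesis mostly use enzymes from separate nuclear genes, named with 1 and 2 in most pairs. Several cytosolic enzymes are bound together with scaffold proteins in the multi-tRNA synthetase complex, and the enzymes fall into class I and class II by the fold of the catalytic domain. Splice variants that lack or gain a domain are known for many of these genes, and some have roles outside of charging.

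The members held more events in DCRT-KO than in WT, and the excess was larger than that of the list as a whole. The ratio of DCRT-KO to WT events was 1.57 (interval 1.32 to 1.87) for the members, against 1.21 (1.19 to 1.23) for all genes. The members made up 0.804% (0.722% to 0.893%) of the DCRT-KO list and 0.62% (0.541% to 0.708%) of the WT list. Of the 32 listed members 23 had the higher number in DCRT-KO and 8 in WT, with GARS1 equal. Over all listed genes 52.4% had more events in DCRT-KO and 37.4% had more in WT. The median difference, DCRT-KO minus WT, was 3.5 events over the listed members and 1 event over all genes.

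The number of isoforms differed in the same direction. The events of the members named 516 DCRT-KO isoforms and 338 WT isoforms, a ratio of 1.53, while all events named 54197 and 49374, a ratio of 1.1. Per isoform, the members had 0.667 events in DCRT-KO and 0.648 in WT, against 0.789 and 0.715 over all events. The members' excess in DCRT-KO was therefore present in isoforms as much as in events, and the files cannot say how many reads lay behind either.

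**Figure D1:**
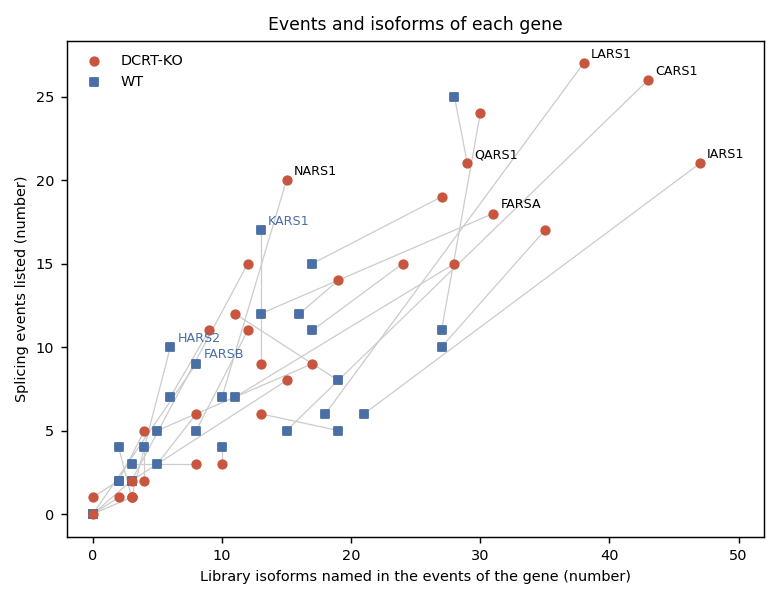
Splicing events listed (vertical axis, number) against library isoforms named in those events (horizontal axis, number) for each of the 32 listed genes. Circles are DCRT-KO and squares are WT, with a grey line joining the 2 values of a gene. The gene with most isoforms, IARS1 with 47 in DCRT-KO, had 21 events, fewer than LARS1 with 27 or CARS1 with 26. Names beside circles mark a gene's DCRT-KO value and names beside squares its WT value.

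A gene was called here when it had at least 6 events in both libraries together and at least 2 times as many in 1 library as in the other, with 0 set to a floor of 3. Of 27 members that could be compared, 11 were called with more events in DCRT-KO and 3 with more in WT. The same rule called 34.2% of 3860 genes for DCRT-KO and 18.7% for WT. The members called for DCRT-KO were AARS1, AIMP2, CARS1, IARS1, LARS1, NARS1, NARS2, TARS2, VARS2, WARS2 and YARS1, and those called for WT were EARS2, FARSB and HARS2. Read against these backgrounds, 11 and 3 of 27 do not set the members apart.

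Cytosolic enzymes carried most of the events. Their 17 genes had 264 events in DCRT-KO and 153 in WT, a ratio of 1.73 (1.41 to 2.12), and 14 of the 17 had more in DCRT-KO. The exceptions were QARS1, RARS1 and FARSB. The mitochondrial enzymes had 62 events in DCRT-KO and 44 in WT, a ratio of 1.41 (0.942 to 2.12), and 7 of 11 listed genes had more in DCRT-KO. The cytosolic ratio over the mitochondrial ratio was 1.22 (0.772 to 1.93), an interval that includes 1, and 0.897 when isoforms were counted in place of events, so a difference between the compartments was not detectable with these numbers. All 17 cytosolic genes were listed, while 5 of the 16 mitochondrial genes, CARS2, FARS2, MARS2, PARS2 and SARS2, were not listed in either library. The reference transcript of MARS2 has 1 exon and that of PARS2 has 2, which leaves few splice sites, whereas those of CARS2, FARS2 and SARS2 have 15, 7 and 16. Within the cytosolic enzymes, class I genes had 161 and 86 events in DCRT-KO and WT, a ratio of 1.87 (1.43 to 2.46), and class II genes had 97 and 62, a ratio of 1.56 (1.13 to 2.19).

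**Figure D2:**
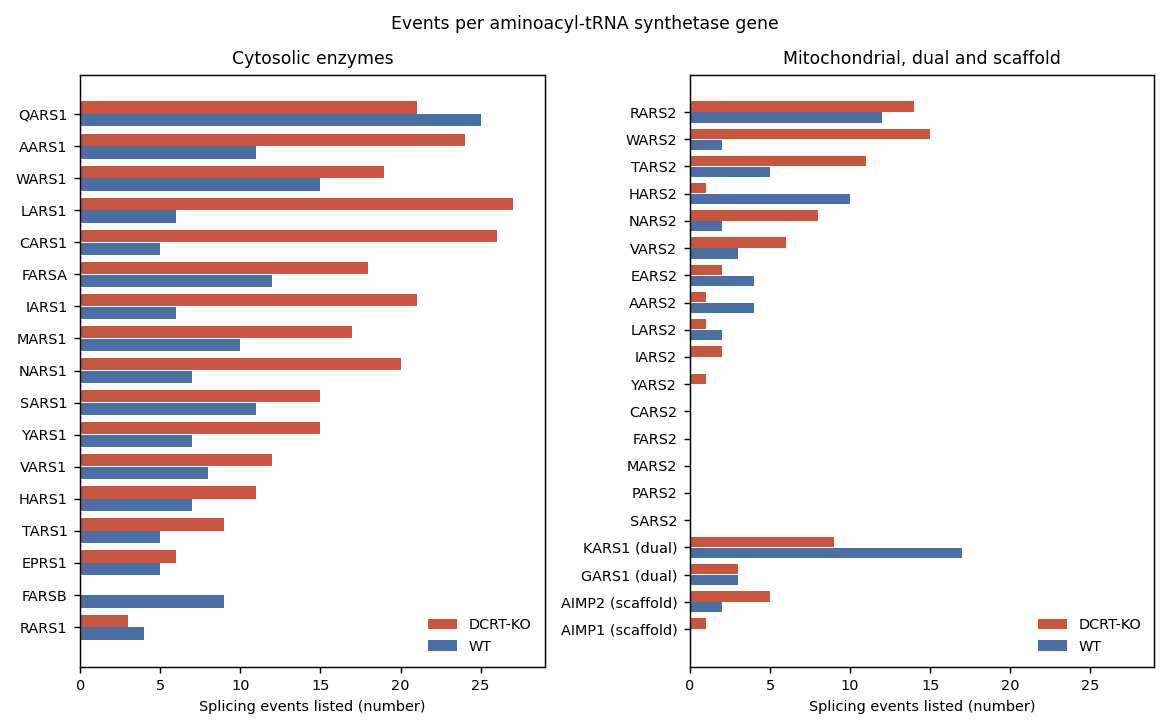
Number of splicing events listed per gene (horizontal axis) in DCRT-KO (upper bar) and WT (lower bar) for cytosolic enzymes, left, and for mitochondrial enzymes, genes serving both compartments (dual) and scaffold genes, right. LARS1 and CARS1 reached 27 and 26 events in DCRT-KO, and the genes without a bar were not listed.

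Members of the multi-tRNA synthetase complex had 110 events in DCRT-KO and 75 in WT, a ratio of 1.47 (1.08 to 1.99), and cytosolic enzymes outside of it had 169 and 97, a ratio of 1.74 (1.35 to 2.26). Within the complex the genes went in both directions. LARS1, the leucyl enzyme that also reports leucine to the mTORC1 pathway, had the largest difference together with CARS1. LARS1 (chr5:146113038-146182660, minus strand, hg38) had 27 events on 38 isoforms in DCRT-KO and 6 events on 18 isoforms in WT, a ratio of 4.5 (1.82 to 13.3). Its alternative donors numbered 11 in DCRT-KO and 1 in WT, its skipped exons 6 and 2, its retained introns 6 and 1, its alternative acceptors 3 and 1, and its mutually exclusive exons 1 in each. In DCRT-KO 6 of its events had at least 2 isoforms of the library on each form, and none did in WT. All but 1 of the WT events were found in DCRT-KO too.

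Exon 5 of LARS1 (138 bases, wholly coding, a whole number of codons, chr5:146168128-146168265) was left out by 4 isoforms and kept by 19 in DCRT-KO, and was kept by all 12 isoforms in WT, where an annotated transcript carried the skipped form. The share without the exon was 17.4% (4.95% to 38.8%) in DCRT-KO and 0% (0% to 26.5%) in WT, and the intervals overlap. The neighbouring exon 6 (162 bases, whole codons) was left out by 1 isoform and kept by 19 in DCRT-KO, against 1 and 12 in WT. The same exon pair was also listed as mutually exclusive in both libraries. The exon 5 sequence, which the isoforms without it lose in frame, is shown from the GENCODE v29 transcript.
LARS1 exon 5: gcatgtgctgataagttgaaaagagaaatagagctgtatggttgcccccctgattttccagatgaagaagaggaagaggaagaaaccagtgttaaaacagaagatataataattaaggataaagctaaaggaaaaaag

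Isoleucyl-tRNA synthetase, IARS1 (chr9:92210207-92293756, minus strand), had 21 events on 47 isoforms in DCRT-KO and 6 events on 21 isoforms in WT, a ratio of 3.5 (1.37 to 10.6). It had 7 exon skipping, 3 intron retention, 5 acceptor and 6 donor rows in DCRT-KO, against 1, 0, 2 and 3 in WT. Several DCRT-KO donor rows were of the same donor pair, and an exon skipping row was also repeated. Counting repeats once left IARS1 with 17 rows in DCRT-KO, against 6 in WT. Among its retained segments only intron 19 was annotated. A 49-base annotated coding exon was kept by 3 isoforms and left out by 36 in DCRT-KO, against 1 and 15 in WT. More isoforms thus lacked this exon than kept it in both libraries. At exon 32 an acceptor 60 bases downstream, which removes whole codons, was used by 4 isoforms against 35 in DCRT-KO, and in WT by an annotated transcript alone against 16 isoforms.

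QARS1, the glutaminyl enzyme (chr3:49095932-49105135, minus strand), had more events in WT: 21 events on 29 isoforms in DCRT-KO and 25 on 28 isoforms in WT, a ratio of 0.84 (0.447 to 1.56). With at least 2 isoforms of the library on each form it had 7 events in DCRT-KO and 3 in WT, which turns the direction. Intron retention was its most frequent event type, with 8 rows in DCRT-KO and 11 in WT, not all of annotated introns. The number of isoforms was nearly equal in the 2 libraries, unlike that of LARS1 or IARS1. Its exon 23 (126 bases) was left out by 3 of 28 isoforms in DCRT-KO, 10.7% (2.27% to 28.2%), and by 1 of 24 in WT, 4.17% (0.105% to 21.1%). Exon 15 (93 bases) was left out by 2 isoforms and kept by 25 in DCRT-KO, against 1 and 19 in WT. The frame-shifting exon 9 (86 bases) was left out by 3 and kept by 18 in DCRT-KO, against 1 and 21 in WT. All 3 shares were higher in DCRT-KO, with intervals that overlap those of WT.

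MARS1, the methionyl enzyme (chr12:57475445-57517569, plus strand), had 17 events on 35 isoforms in DCRT-KO and 10 on 27 isoforms in WT. Intron retention made up 13 of its DCRT-KO events and 6 of its WT events. With retention counted for annotated introns alone, MARS1 had 13 events of all types in DCRT-KO and 9 in WT. In both lists 5 annotated introns were retained. Intron 19 (253 bases) was kept by 5 isoforms and removed by 18 in DCRT-KO, against 1 and 19 in WT. Intron 13 (132 bases) was kept by 4 and removed by 18 in DCRT-KO, against 1 and 12 in WT. All 5 introns had more retaining isoforms in DCRT-KO, where MARS1 also had more isoforms in all. Intron 14 was kept by 2 and removed by 4 in DCRT-KO, against 1 and 1 in WT, so its retaining isoforms made up a smaller part in DCRT-KO.

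EPRS1, which joins the glutamyl and prolyl enzymes in 1 protein, had 6 events on 13 isoforms in DCRT-KO and 5 on 19 isoforms in WT. RARS1, the arginyl enzyme, had 3 and 4 events. Of the scaffold genes, AIMP2 had 5 and 2 events and AIMP1 had 1 event in DCRT-KO and none in WT. Skipping of exon 2 of AIMP2 is known to give the variant AIMP2-DX2, described in cancer cells. This 207-base exon (chr7:6015146-6015352) was left out by 1 isoform and kept by 1 in DCRT-KO, while in WT the event was carried by annotated transcripts alone, with no isoform of the library on either form. Evidence for the exon-less form from these cells was thus 1 DCRT-KO isoform.
AIMP2 exon 2: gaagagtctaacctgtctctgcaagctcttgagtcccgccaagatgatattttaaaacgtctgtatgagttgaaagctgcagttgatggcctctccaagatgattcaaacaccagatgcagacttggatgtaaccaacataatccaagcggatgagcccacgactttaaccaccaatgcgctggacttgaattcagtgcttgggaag

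KARS1 (chr16:75627474-75648643, minus strand), also in the complex, encodes the cytosolic and the mitochondrial lysyl enzyme and had fewer events in DCRT-KO. It had 9 events and 13 isoforms in DCRT-KO and 17 events and 13 isoforms in WT. Exon skipping accounted for 6 events in DCRT-KO against 11 in WT, and intron retention for 0 and 2. Some of the skipping events were rows of the same exon. With repeated rows counted once, KARS1 had 8 events in DCRT-KO and 13 in WT. Of its 9 and 17 events, 3 in DCRT-KO and 1 in WT had at least 2 isoforms on each form, so the direction turned among them. Inclusion of an alternative exon (chr16:75644283-75644462, 180 bases) is known to produce the mitochondrial form, whose start codon lies in that exon. In DCRT-KO the exon was left out by 4 isoforms and kept by 5, 44.4% without it (13.7% to 78.8%), and in WT it was left out by 6 and kept by 4, 60% (26.2% to 87.8%). Both libraries therefore held isoforms of both the cytosolic and the mitochondrial kind, in shares whose intervals overlap. Below is the coding part of the exon in the transcript of the mitochondrial form, chr16:75644283-75644428, with the start codon in capitals.
KARS1 mitochondrial exon: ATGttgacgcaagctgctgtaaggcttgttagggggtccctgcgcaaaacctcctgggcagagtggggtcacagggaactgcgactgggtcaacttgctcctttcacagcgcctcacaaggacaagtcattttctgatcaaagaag

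GARS1, the glycyl gene, which makes both forms by use of different start codons, had 3 events in each library, on 8 DCRT-KO and 3 WT isoforms. A 110-base annotated exon of it was left out by 7 isoforms and kept by 1 in DCRT-KO, against 3 and 0 in WT. For GARS1 and KARS1 together the ratio of DCRT-KO to WT events was 0.6 (0.267 to 1.29), the reverse of the direction of the cytosolic and mitochondrial groups, with an interval that includes 1.

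Among cytosolic enzymes outside the complex, CARS1 (cysteinyl, chr11:3000922-3057613, minus strand) had 26 events on 43 isoforms in DCRT-KO and 5 events on 15 isoforms in WT, a ratio of 5.2 (1.96 to 17.3). Skipped exons numbered 9 and 1, retained introns 7 and 1, acceptors 4 and 2, and donors 6 and 1. In DCRT-KO 12 events had at least 2 isoforms on each form, the most of any member, and in WT 3 did. An alternative in-frame coding exon of 249 bases (chr11:3047753-3048001) was left out by 27 isoforms and kept by 9 in DCRT-KO, 75% without it (57.8% to 87.9%), and left out by 10 and kept by 5 in WT, 66.7% (38.4% to 88.2%). More isoforms lacked the exon than kept it in both libraries, and the intervals overlap. Intron 20 (487 bases) was kept by 7 isoforms and removed by 21 in DCRT-KO, against 1 and 4 in WT.
CARS1 alternative exon: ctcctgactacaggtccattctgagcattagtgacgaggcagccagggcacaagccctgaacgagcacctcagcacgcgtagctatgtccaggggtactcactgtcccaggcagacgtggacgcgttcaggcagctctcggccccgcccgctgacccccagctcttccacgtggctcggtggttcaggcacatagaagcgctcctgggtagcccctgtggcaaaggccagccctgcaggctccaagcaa

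**Figure D3:**
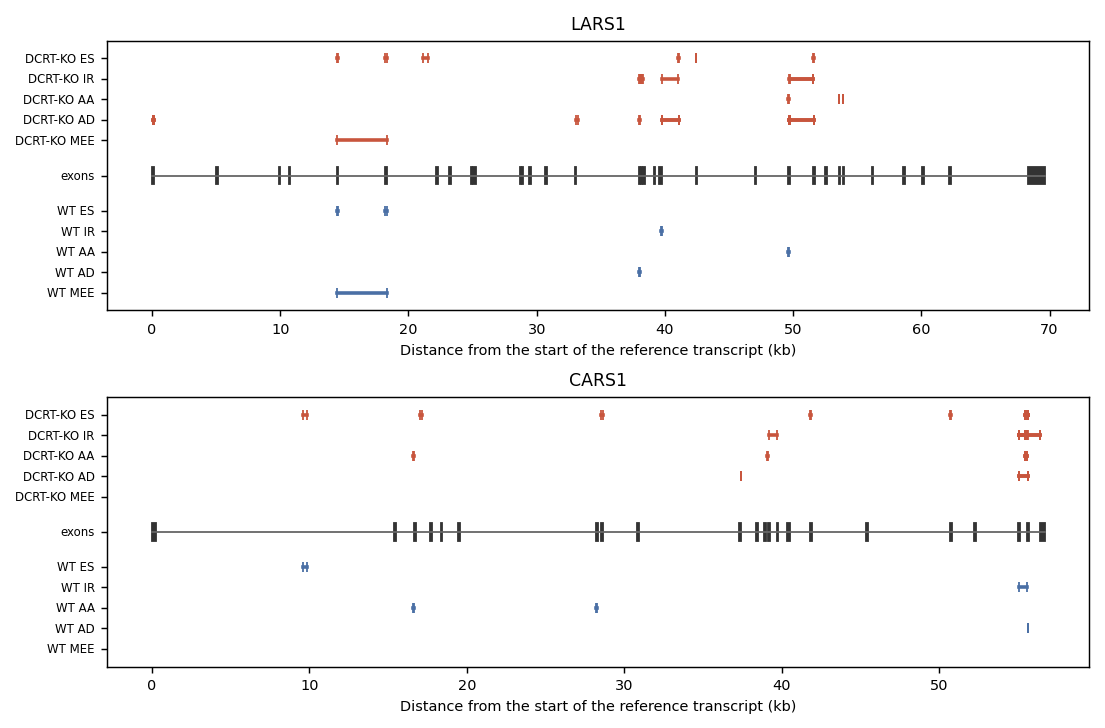
Position of listed events along LARS1 and CARS1, as distance in kb from the start of the reference transcript in the direction of transcription, with exons as black boxes. DCRT-KO events are drawn above the exons and WT events below, by type (ES exon skipping, IR intron retention, AA alternative acceptor, AD alternative donor, MEE mutually exclusive exons), and the 27 and 26 DCRT-KO events are spread over several exons of each gene.

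AARS1, the alanyl enzyme (chr16:70252295-70289543, minus strand), had 24 events on 30 isoforms in DCRT-KO and 11 on 27 isoforms in WT, a ratio of 2.18 (1.03 to 4.93). Its isoform numbers were close, and its events per isoform were 0.8 in DCRT-KO and 0.407 in WT. It had 7 exon skipping, 8 intron retention, 5 acceptor and 4 donor events in DCRT-KO, against 3, 5, 3 and 0 in WT. Not all of the retention events were of annotated introns. With retention counted for annotated introns alone, AARS1 had 18 events in DCRT-KO and 9 in WT. Exon 15 (185 bases) was left out by 1 isoform in each library and kept by 18 in DCRT-KO and 7 in WT. Exon 12 (179 bases), which shifts the frame, was left out by 2 isoforms and kept by 22 in DCRT-KO and was not found skipped in WT.

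WARS1 (tryptophanyl, chr14:100333788-100376805, minus strand) had 19 events on 27 isoforms in DCRT-KO and 15 on 17 isoforms in WT, and 10 events of each list were found in the other. With unannotated introns left out it had 1 event fewer in DCRT-KO than in WT. Skipping of exon 2, which holds the usual start codon, is known to give the shorter mini form, an inhibitor of blood vessel growth. Exon 2 (172 bases, of which 99 are coding) was left out by 5 isoforms and kept by 19 in DCRT-KO, 20.8% without it (7.13% to 42.2%), and left out by 2 and kept by 11 in WT, 15.4% (1.92% to 45.4%). Isoforms without the exon were thus present in both libraries at shares within each other's intervals. The 99 coding bases at chr14:100369087-100369185 are shown with the start codon in capitals.
WARS1 exon 2, coding part: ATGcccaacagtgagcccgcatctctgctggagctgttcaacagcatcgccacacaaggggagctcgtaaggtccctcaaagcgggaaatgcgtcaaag

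NARS1 (asparaginyl, chr18:57600656-57622213, minus strand) had 20 events on 15 isoforms in DCRT-KO and 7 on 10 isoforms in WT, a ratio of 2.86 (1.16 to 8). It had 5 skipped exons, 9 retained introns, 2 acceptors and 4 donors in DCRT-KO, against 1, 4, 1 and 1 in WT. Exon 2 began at either of a pair of acceptors 3 bases apart. The upstream one was used by 9 isoforms and the downstream one by 2 in DCRT-KO, against 6 and 4 in WT. LARS1 had a like pair at exon 27, listed in DCRT-KO alone, with 27 isoforms on the upstream and 2 on the downstream acceptor. Each pair adds or removes 1 codon's length. The first 30 bases of each exon from the upstream acceptor are shown, with the 3 bases left out at the downstream acceptor in capitals; they lie at chr18:57620622-57620651 and chr5:146128753-146128782.
NARS1 exon 2 start: CAGagctgtacgtctctgaccgagagggaa
LARS1 exon 27 start: AAGactgacaaacaacccctgcagaagccc

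FARSA and FARSB encode the alpha and beta subunits of the cytosolic phenylalanyl enzyme, and their event numbers differed in opposite directions. FARSA (chr19:12922479-12934037, minus strand) had 18 events on 31 isoforms in DCRT-KO and 12 on 13 isoforms in WT. FARSB (chr2:222570536-222656337, minus strand) had 0 events in DCRT-KO and 9 on 8 isoforms in WT, and was the only member listed in WT alone. Of the 9 events, 5 were of the exon skipping type. Among these only exon 2 (56 bases) was annotated, left out by 1 isoform and kept by 3. In the others 1 isoform carried an unannotated exon that the rest lacked. All 12 WT events of FARSA were of the intron retention type, as were 12 of its 18 in DCRT-KO. With retention counted for annotated introns alone, FARSA had 13 events in DCRT-KO and 9 in WT. In both lists 5 annotated introns were retained. With at least 2 isoforms on each form FARSA had 0 events in DCRT-KO and 1 in WT. Intron 6 of FARSA (77 bases) was kept by 1 isoform and removed by 20 in DCRT-KO, against 3 and 7 in WT. A 0 for FARSB in DCRT-KO says that no event was listed, not that the gene was off or spliced in 1 way.

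SARS1, the seryl enzyme (chr1:109213918-109238169, plus strand), had 15 events on 24 isoforms in DCRT-KO and 11 on 17 isoforms in WT. Intron retention accounted for 9 of these in each library, not all of annotated introns. With retention counted for annotated introns alone, SARS1 had 10 events in DCRT-KO and 5 in WT. An annotated in-frame coding exon of 66 bases (chr1:109236805-109236870) was left out by 13 isoforms and kept by none in DCRT-KO, where an annotated transcript carried the form with it, and left out by 11 and kept by 1 in WT. At most 1 isoform of either library therefore kept the exon, and its share of the RNA is not known.
SARS1 alternative exon: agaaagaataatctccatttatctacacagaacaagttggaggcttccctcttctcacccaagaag

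The remaining cytosolic genes each had more events in DCRT-KO. YARS1, the tyrosyl enzyme, had 15 events in DCRT-KO and 7 in WT. VARS1, the valyl enzyme, had 12 and 8 events although its isoforms numbered 11 in DCRT-KO and 19 in WT, and none of its events was found in both lists. HARS1, the histidyl enzyme, had 11 and 7 events, and TARS1, the threonyl enzyme, had 9 and 5.

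Among mitochondrial enzymes, WARS2 (tryptophanyl, chr1:119031216-119140671, minus strand) had the largest difference in number, with 15 events on 12 isoforms in DCRT-KO and 2 events on 3 isoforms in WT, a ratio of 7.5 (1.74 to 67.6). In DCRT-KO it had 9 skipped exons, 1 retained intron, 2 acceptors, 1 donor and 2 mutually exclusive pairs, and in WT 1 skipped exon and 1 donor. Both WT events were found in DCRT-KO. At exon 2 of WARS2 a donor that removes 171 coding bases was used by 2 isoforms against 9 in DCRT-KO and by 1 against 2 in WT.

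RARS2 (arginyl, chr6:87514378-87590003, minus strand) had 14 events on 19 isoforms in DCRT-KO and 12 on 16 isoforms in WT. Its exon 6 (56 bases, frame-shifting) was left out by 3 isoforms and kept by 12 in DCRT-KO, 20% without it (4.33% to 48.1%), and left out by 4 and kept by 10 in WT, 28.6% (8.39% to 58.1%). The intervals for this exon overlap, and RARS2 was the mitochondrial gene with most events in both lists together.

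TARS2 (threonyl) had 11 events on 12 isoforms in DCRT-KO and 5 on 8 isoforms in WT, and all 5 WT events were found in DCRT-KO. Its exon 15 (102 bases, in frame) was left out by 2 isoforms and kept by 6 in DCRT-KO, 25% without it (3.19% to 65.1%), and left out by 1 and kept by 5 in WT, 16.7% (0.421% to 64.1%). The intervals overlap. Exon 9 (99 bases, in frame) went the other way, with 20% of isoforms without it in DCRT-KO and 33.3% in WT. Exon 6 (65 bases, frame-shifting) was left out by 20% in each library. NARS2 (asparaginyl) had 8 events on 15 isoforms in DCRT-KO and 2 on 3 isoforms in WT. Its exon 13 (27 bases, 9 codons, chr11:78441091-78441117) was left out by 4 isoforms and kept by 7 in DCRT-KO and kept by all 3 isoforms in WT, where an annotated transcript carried the skipped form. This short exon is shown because it is lost in frame from isoforms of the DCRT-KO library.
NARS2 exon 13: atcgggacttacagaagtctaccaatg

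HARS2 went the other way, with 1 event on 3 isoforms in DCRT-KO and 10 events on 6 isoforms in WT, a ratio of 0.1 (0.0023 to 0.703). Of its WT events 7 were retained introns, of which DCRT-KO had 0. HARS2 (chr5:140691426-140699318, plus strand) overlaps the cytosolic HARS1 gene (chr5:140673904-140691862) at their 5′ ends on opposite strands, so reads near that border may be assigned to either gene. The remaining mitochondrial genes had few events: VARS2 had 6 in DCRT-KO and 3 in WT, EARS2 had 2 and 4 (1 more in DCRT-KO once each form needed an isoform of the library), AARS2 had 1 and 4, and LARS2 had 1 and 2. IARS2 with 2 events and YARS2 with 1 were listed in DCRT-KO alone. For several members, among them AARS1, KARS1, NARS1 and WARS2, the annotation also holds named pseudogenes, and how the authors placed reads that match both is not given in the sources used here.

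Exon skipping took a smaller share of cytosolic than of mitochondrial events in both libraries. Exon skipping made up 28.4% (23% to 34.3%) of cytosolic and 54.8% (41.7% to 67.5%) of mitochondrial events in DCRT-KO, and 24.8% (18.2% to 32.5%) against 47.7% (32.5% to 63.3%) in WT. The skipping intervals did not overlap in DCRT-KO and met at 32.5% in WT. Intron retention made up 40.2% (34.2% to 46.3%) of cytosolic and 21% (11.7% to 33.2%) of mitochondrial events in DCRT-KO, and 46.4% (38.3% to 54.6%) against 31.8% (18.6% to 47.6%) in WT, where the intervals overlap. FARSA and MARS1 alone supplied 25 of the 106 cytosolic intron retention events in DCRT-KO and 18 of 71 in WT. WARS2, TARS2, RARS2 and NARS2 supplied 25 of the 34 mitochondrial exon skipping events in DCRT-KO and 12 of 21 in WT. Annotated introns made up 57 of the 106 cytosolic retention events in DCRT-KO and 44 of 71 in WT. Among mitochondrial retention events they made up 6 of 13 in DCRT-KO and 12 of 14 in WT.

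Between the libraries, the members' shares of event types had overlapping intervals. Exon skipping took 35.8% (30.7% to 41.1%) of member events in DCRT-KO and 33.8% (27.6% to 40.5%) in WT, against 39.7% and 34.5% of all events. Intron retention took 34.6% (29.6% to 39.9%) and 39.7% (33.2% to 46.5%), against 28.6% and 35.1% of all events. Alternative acceptors were 12.5% and 12.3%, alternative donors 14% and 11%, and mutually exclusive exons 3.2% in each library.

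**Figure D4:**
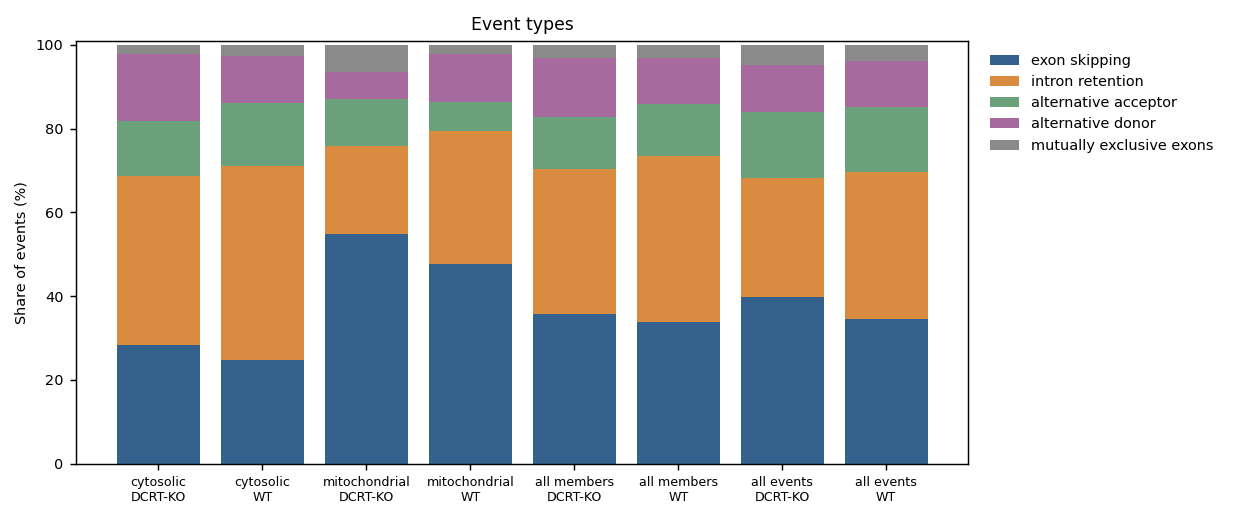
Share of events by type (vertical axis, % of events) for cytosolic enzymes, mitochondrial enzymes, all members and all events of the series, each in DCRT-KO and then WT. Exon skipping, the lowest segment, is the largest type of the mitochondrial enzymes in both libraries (54.8% in DCRT-KO and 47.7% in WT), and intron retention that of the cytosolic enzymes.

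Events found in both lists, with identical type and positions, made up 32.6% (27.6% to 37.8%) of member events in DCRT-KO and 47.5% (40.7% to 54.3%) in WT, against 30.6% and 35.7% of all events. In other words 112 of 344 and 104 of 219 member events were common to the lists. The WT share was higher for the members than for the whole list beyond counting error, while the members' DCRT-KO interval includes 30.6%. The ratio of DCRT-KO to WT events was 1.57 for the members and 1.21 for all events. WT events of the members thus had relatively more DCRT-KO events to match, and the part of this in the WT share was not tested. Events with at least 2 isoforms of the library on each form were 79 of 344 in DCRT-KO, 23% (18.6% to 27.8%), and 20 of 219 in WT, 9.13% (5.67% to 13.8%). Over all events these shares were 13% and 11.3%. The ratio of DCRT-KO to WT for such better supported events was 3.95 (2.39 to 6.81) among the members and 1.4 (1.34 to 1.45) over all genes. The members' excess in DCRT-KO was thus larger among events with several isoforms on each form. The members' higher number of isoforms in DCRT-KO was not taken into account in it.

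The lists shared 39 distinct skipped exons of 20 members, 36 of them annotated. Of these, 28 were wholly coding and 13 of the 28 held a whole number of codons. Across all member events with a wholly coding skipped exon, 42.9% (31.6% to 54.6%) in DCRT-KO and 45% (29.3% to 61.5%) in WT held whole codons, against 47.6% and 50.5% over all genes. The members' intervals include the values over all genes.

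**Figure D5:**
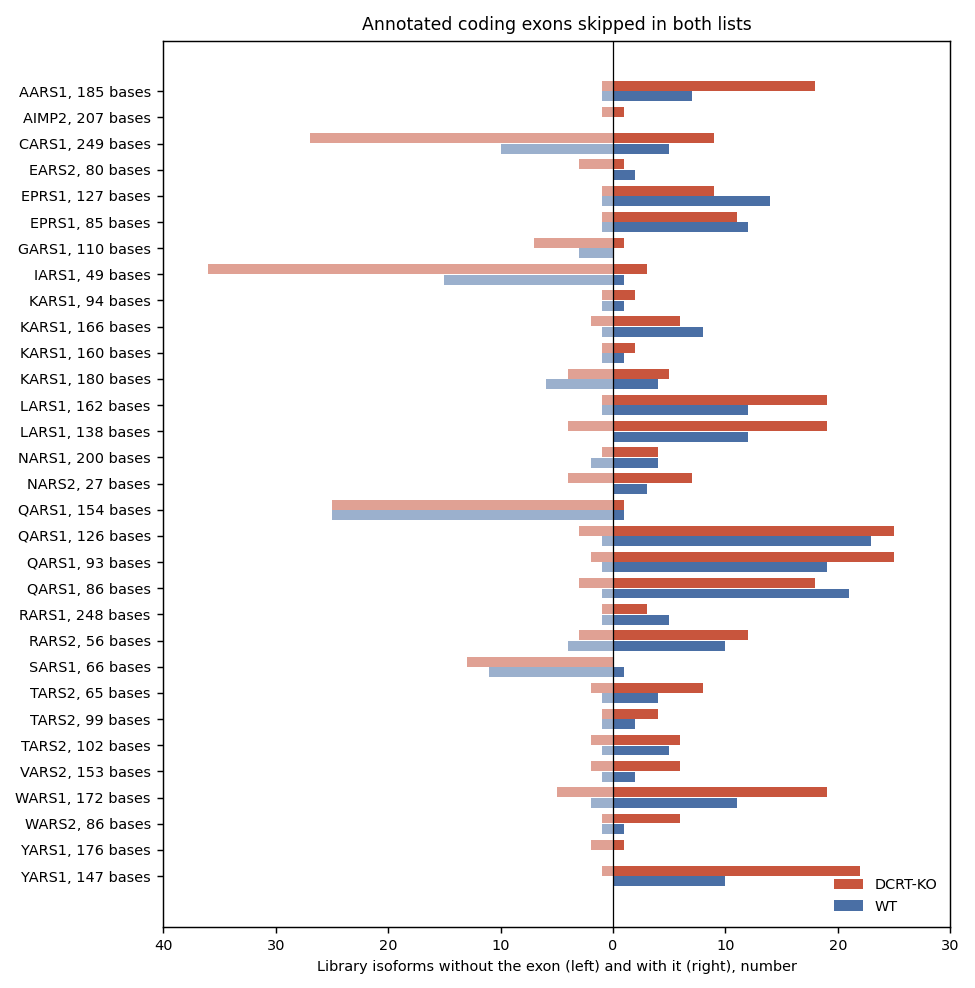
Library isoforms without the exon (left of 0, pale) and with it (right of 0, full colour), in number, for annotated exons with coding bases that were skipped in both lists (1 is not shown), labelled by gene and exon length, with DCRT-KO above WT. For the exons of CARS1, IARS1, GARS1 and SARS1 and the 154-base exon of QARS1, more isoforms lacked the exon than kept it in both libraries.

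Of annotated introns, 27 in 13 members were retained in both lists, led by FARSA and MARS1 with 5 each and QARS1 and SARS1 with 3 each. QARS1 intron 21 (94 bases) was kept by 2 isoforms and removed by 27 in DCRT-KO, against 5 and 22 in WT. WARS1 intron 5 (577 bases) was kept by 2 and removed by 15 in DCRT-KO, against 1 and 11 in WT. These are numbers of isoforms, and the genes also differed in how many isoforms each library held.

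The lists further shared 9 acceptor pairs in 8 members, 12 donor pairs in 11 members and 3 mutually exclusive pairs, in LARS1, RARS2 and WARS1. At exon 21 of CARS1 a pair of donors 8 bases apart, both annotated, was listed in 3 contexts in DCRT-KO, the largest with 13 isoforms on the upstream and 8 on the downstream donor, against 4 and 3 in WT. At exon 33 of IARS1 a donor 18 bases further downstream was used by 5 isoforms against 35 in DCRT-KO and by 1 against 16 in WT. At exon 5 of WARS1 an acceptor that removes 22 coding bases was used by 2 isoforms against 14 in DCRT-KO and by 1 against 10 in WT. In each of these the site with fewer isoforms was the same in both libraries.

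Intron retention rows also include segments that no GENCODE v29 transcript removes. Introns of the annotation made up 63 of 119 member retention events in DCRT-KO, 52.9% (43.6% to 62.2%), and 57 of 87 in WT, 65.5% (54.6% to 75.4%), against 48.2% and 46.9% over all genes. Of the unannotated ones, 34 of 56 in DCRT-KO and 17 of 30 in WT lay inside an annotated exon, 60.7% (46.8% to 73.5%) and 56.7% (37.4% to 74.5%), against 81.8% and 83.3% over all genes. GT and AG, the usual ends of an intron, bounded 4 of these 34 and 3 of these 17, against 15.6% and 12.5% over all genes. The spliced form was carried by 1 isoform in 94.6% of the unannotated introns in DCRT-KO and 96.7% in WT, against 96.3% and 96.6% over all genes. Few recurred: 5 were in both lists, in NARS1, SARS1 and TARS1. One of them was a 64-base segment of SARS1 (chr1:109235311-109235374) with GT and AG ends, shown with 15 bases on each side and with the 4 bases repeated at its ends in capitals.
SARS1 segment: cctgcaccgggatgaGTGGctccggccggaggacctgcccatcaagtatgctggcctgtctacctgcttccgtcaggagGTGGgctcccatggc

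Other genes of the pathway were counted by the same rule. Of 17 further tRNA charging partner genes 11 were listed, with 41 events in DCRT-KO and 30 in WT. The ratio was 1.37 (0.833 to 2.27), an interval that includes 1. Of 6 compared 2 were called for DCRT-KO and 1 for WT, beside 34.2% and 18.7% of all genes. Of 38 tRNA maturation genes 31 were listed, with 193 events in DCRT-KO against 99 in WT, and of 19 compared 10 were called for DCRT-KO and 2 for WT, beside the 34.2% and 18.7% of all genes. A further 24 amino acid response genes were counted as targets or parts of the ATF4 pathway, whose activity was not tested. CHAC1, DDIT3 and TRIB3 were among those not listed. The 15 listed genes had 249 events in DCRT-KO and 81 in WT. Of 11 compared 8 were called for DCRT-KO and none for WT, beside the same backgrounds. PHGDH, an enzyme of serine synthesis, alone held 77 of these events in DCRT-KO and 4 in WT, while PYCR1, SLC38A2, SLC7A5 and EIF2AK4 had more events in WT. The median difference, DCRT-KO minus WT, was 0 events for the charging partners, 2 for the maturation genes and 4 for the amino acid response genes. It was 3.5 for the synthetase genes and 1 for all genes.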

How the data were processed

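RNA was isolated with Trizol, per the labels. Long reads (PacBio Iso-Seq) are named in the design text but Illumina libraries in the labels' protocols, and this conflict was not settled. Per the submitters' processing notes, minimap2 and hg38 were used; for the program that called events, its filters and its annotation release, no name is given in the sources used here. The deposited tables give, per the file headers, a chromosome, the isoforms of each form, a gene identifier, a structure code, a type and splice positions, with no counts or inclusion levels.

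Each row was counted as 1 event. All 37 members were matched to an identifier through a table of symbols, in which 8021 of 8028 identifiers were found. Exons, introns and sequences came from GENCODE v29 (GRCh38, the same build as hg38), where 65 of the 86 Ensembl transcripts in member events were found, so the authors used another release. An isoform count adds the distinct library isoforms over the rows of a shared exon or intron; for other events it belongs to 1 row. Each row sets only isoforms with like surroundings against each other, so the numbers are not totals of the gene. Intervals are exact 95% intervals (Clopper-Pearson for shares, conditional binomial for ratios, conditional for the ratio of ratios; scipy 1.17.1, pandas 2.3.3, Python 3.11.15). The counting of calls and end repeats was tested on simulated data. Every member with a row is named; full values went to the 12 members with most events and the 6 with the largest difference. Some items are not reported here. Members and lists were chosen with earlier results of these data known. Alternatives changed the support, repeats, annotation, scaling, fold and overlap required.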

Additional observations from a re-analysis of the deposited data

How the results depend on the processing

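No paired analysis was possible because there is 1 library of each genotype, and for the same reason no library could be left out. Where each form needed at least 2 isoforms of its library, the ratio of DCRT-KO to WT events was 3.95 for all members, 4.2 for cytosolic and 3.25 for mitochondrial enzymes; exon skipping took 46.8% and intron retention 26.6% of the DCRT-KO events, 58.2% of DCRT-KO and 85% of WT events were in both lists, and 0 members were called for WT. Divided by list length, the members' ratio was 1.3. A 3-fold rule called 5 members for DCRT-KO, and a minimum of 10 events called 1 for WT. With retention counted for annotated introns alone, exon skipping took 42.7% and retention 21.9% in DCRT-KO, and retention 30.2% in WT. With any overlap counted, 44.5% of DCRT-KO and 57.5% of WT member events were shared. The causes were not tested, beyond the fewer or more events that each setting counts. The other 57 values of these results stayed within their counting error or, for counts of calls, within 1.5 times; among them, the cytosolic over the mitochondrial ratio turned to 0.897 with isoforms in place of events. Among single members, the difference, DCRT-KO minus WT, turned to 4 for QARS1, 2 for KARS1 and -1 for FARSA with at least 2 isoforms on each form, to -1 for WARS1 with annotated introns alone, and to 1 for EARS2 where each form needed an isoform of the library. What depth limits cannot be given, since the lists hold no read numbers.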
